A study of Mus musculus with 6 samples.

Results

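Homeostatic microglia genes are the transcripts by which resting microglia, the resident macrophages of the brain, are told from other cells. The set of P2ry12, P2ry13, Tmem119, Cx3cr1, Sall1, Csf1r, Gpr34, Siglech and Olfml3 was followed in whole glioblastoma tissue. Members were matched by gene symbol, and 9 of the 9 were found among the 16729 genes of the deposited table. All 9 passed the filter on low counts in each comparison made.

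The tumors grew from mG7080 cells, a murine glioblastoma (GBM) gliomasphere culture, which were injected into the brains of C57BL/6 mice (C57BL/6J in the study's methods). Hosts were either Esm1 WT or Esm1 KO (Esm1 encodes Endocan, a proteoglycan secreted by endothelial cells), and the injected cells were the same in both groups, so that only host cells carried the deletion. The study's methods give female hosts of 6 to 8 weeks, and its reporting summary gives an older range. RNA-seq libraries were made from 3 tumors of each group (WT 1, WT 2, WT 3 and KO 1, KO 2, KO 3), each of a different mouse. Each library holds RNA of tumor cells, of infiltrating cells and of any brain tissue taken with the tumor. Fewer microglia and less of a transcript in each microglial cell cannot be told apart in such tissue.

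Between 17632070 and 22241832 reads were counted on genes per library. A level is given in CPM, counts per 1000000 after scaling with edgeR's TMM factors, in which 1 read was worth 0.0445 to 0.057 CPM. A count of 0 allows up to 3 counts, or 0.134 to 0.171 CPM, for counting error only, and the lowest value of any of the 9 genes was 7.18 CPM. Esm1 measured 1.19, 1.09 and 4.05 CPM in the WT libraries, 0.057 and 0.208 CPM in the libraries labelled KO 1 and KO 3, and 1.07 CPM in the one labelled KO 2. The Esm1 level of the library labelled KO 2 was thus near that of WT 1 and WT 2. The injected cells carry the gene too, and KO 1 and KO 3 were also low in proliferation genes. These summed to 132 and 42.1 CPM there. KO 2 had 1398 CPM and the WT libraries 1255 to 2246 CPM. Whether the Esm1 reads follow the label or the share of tumor cells was not tested. Results for the 9 genes are therefore given over all 6 libraries, without the library labelled KO 2, and over WT 1, WT 2, KO 1 and KO 3, the 4 libraries that the study's own table of results lists. Other genes were fitted over the 6 and over these 4 libraries.

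In the healthy brain, microglia are kept in a resting, surveying state by signals from neurons and other neighbours. CSF1 and IL-34 sustain them through the receptor Csf1r, neuronal fractalkine (Cx3cl1) acts on Cx3cr1, and TGF-beta together with the transcription factors Spi1 (PU.1), Irf8 and Sall1 maintains their expression program. Microglia that become activated, in tumors among other settings, are known to lower many homeostatic genes, while monocyte-derived macrophages that enter a tumor express few of them. Csf1r and Cx3cr1 are shared with other myeloid cells, and Sall1 is also used by neural progenitor cells.

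The 9 genes lie on 7 chromosomes of the mouse genome (GRCm38, GENCODE vM21). On chromosome 3, P2ry12 (chr3:59216272-59262871, minus strand) and P2ry13 (chr3:59207892-59210882, minus strand) are neighbours inside Med12l (chr3:59005825-59318682), a Mediator subunit gene of the opposite strand. P2ry12 shared 9 exon bases with Med12l, and P2ry13 shared 0. Olfml3 (chr3:103722222-103738001, minus strand) lies farther along the same chromosome. Gpr34 (chrX:13632089-13640858, plus strand) lies within Cask with 0 exon bases in common. Siglech is at chr7:55768178-55778925 (plus strand), Tmem119 at chr5:113793729-113800516, Sall1 at chr8:89027235-89044162 and Cx3cr1 at chr9:119901616-120069879, the last 3 on the minus strand. Whether reads were counted by strand is not given in the sources used here, and without strand the reads of overlapping exons cannot be told apart.

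Promoter sequences are shown for 4 of the genes because their levels moved in contrasting ways: P2ry12 and Siglech kept nearly the same ratio to each other in every library, Olfml3 went the other way in KO 1 and KO 3, and P2ry13 is the chromosomal neighbour of P2ry12. Each line gives the 250 bases before the transcript start in RefSeq (GRCm38.p6), read 5' to 3' on the strand of the gene, at chr3:59262986-59263235 for P2ry12, chr7:55767934-55768183 for Siglech, chr3:59210883-59211132 for P2ry13 and chr3:103738002-103738251 for Olfml3. Capitals mark AGGAAG or its reverse complement CTTCCT, a core of the sites that PU.1 and other ETS factors bind.
P2ry12: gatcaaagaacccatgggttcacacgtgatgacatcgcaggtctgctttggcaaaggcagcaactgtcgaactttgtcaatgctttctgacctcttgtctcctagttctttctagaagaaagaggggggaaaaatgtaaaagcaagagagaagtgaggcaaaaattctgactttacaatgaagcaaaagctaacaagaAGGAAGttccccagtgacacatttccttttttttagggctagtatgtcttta
Siglech: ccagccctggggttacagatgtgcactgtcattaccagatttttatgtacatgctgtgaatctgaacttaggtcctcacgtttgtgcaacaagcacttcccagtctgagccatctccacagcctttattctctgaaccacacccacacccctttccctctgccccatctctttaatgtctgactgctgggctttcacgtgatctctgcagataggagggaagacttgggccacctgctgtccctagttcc
P2ry13: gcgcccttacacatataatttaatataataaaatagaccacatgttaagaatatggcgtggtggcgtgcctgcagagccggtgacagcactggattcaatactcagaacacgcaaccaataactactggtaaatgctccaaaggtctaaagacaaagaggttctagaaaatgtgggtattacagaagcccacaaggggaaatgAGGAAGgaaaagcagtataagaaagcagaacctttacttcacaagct
Olfml3: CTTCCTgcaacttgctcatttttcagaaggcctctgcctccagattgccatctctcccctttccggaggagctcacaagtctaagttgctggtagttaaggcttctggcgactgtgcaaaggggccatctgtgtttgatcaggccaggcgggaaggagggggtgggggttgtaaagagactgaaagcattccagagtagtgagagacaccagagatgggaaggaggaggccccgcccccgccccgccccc

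RefSeq promoters were matched for 6 of the 9 genes, in 8 windows, since Sall1 has 3 starts. AGGAAG, read on both strands, was present in 4 of these 8 windows (P2ry12, P2ry13, Olfml3 and 1 of the 3 of Sall1), against 29.5% of 32851 promoters of this length. The longer GAGGAAG, which contains AGGAAG, was in the P2ry13 window alone, against 10.6% of promoters. CAGAC, a short element to which SMAD proteins of the TGF-beta pathway bind, was in 4 of the 8 windows (P2ry12, Cx3cr1, Siglech and 1 of Sall1), against 42.2% of promoters. AGGAAG lay 52 bases before the start in P2ry12 and 47 bases before it in P2ry13, and at the far end of the window in Olfml3. The Siglech window held CAGAC at 2 places and no AGGAAG. The P2ry12 and P2ry13 windows both had 41.6% G and C bases, Siglech 50.8% and Olfml3 57.6%, against a median of 52.4% over all promoters.

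Levels were first compared between genes per length, with the FPKM values that the authors computed. Csf1r, the survival receptor of the macrophage lineage, was highest at 40.5 ± 7.54 FPKM (mean ± SD over the 6 libraries), above the next gene in 6 of 6 libraries. Olfml3, which encodes a secreted glycoprotein with an olfactomedin domain, had 23.2 ± 8.17 FPKM, Cx3cr1 22.4 ± 4.52 FPKM and Tmem119 21.6 ± 9.0 FPKM. The order of these 3 was not fixed: Olfml3 exceeded Cx3cr1 in 3 of 6 libraries, and Cx3cr1 exceeded Tmem119 in 2 of 6. P2ry12 (14.7 ± 5.35 FPKM) and Sall1 (10.6 ± 2.67 FPKM) followed, with P2ry12 above Sall1 in 4 libraries. P2ry13 (7.33 ± 1.31), Gpr34 (7.32 ± 2.31) and Siglech (7.11 ± 2.61 FPKM) were lowest, and neighbours among them exceeded each other in 3 of 6 libraries each. Only the first place of Csf1r was thus held in every library. All 9 genes were measured far above the counting floor, including Tmem119, P2ry12 and Sall1, which mark microglia most closely among myeloid cells.

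The ADP receptor P2ry12, by which microglial processes sense damage, and the lectin Siglech, a sialic acid receptor of the microglial surface, were on average about 2 times as high in the KO as in the WT libraries. P2ry12 stood at 36.9, 16.6 and 19.0 CPM in WT 1, WT 2 and WT 3 and at 54.7, 36.7 and 48.3 CPM in KO 1, KO 2 and KO 3. KO 1 and KO 3 were above every WT library, whereas KO 2 fell just under WT 1. The means were 24.2 ± 11.1 CPM and 46.6 ± 9.14 CPM (SD, n = 3 each), a ratio of 1.93. Siglech had 16.6, 7.18 and 11.3 CPM in the WT libraries and 25.3, 17.1 and 28.0 CPM in the KO libraries. Here all 3 KO values lay above all 3 WT values, as they did for 13.2% of all genes tested, though KO 2 and WT 1 nearly met. Its means were 11.7 ± 4.72 and 23.5 ± 5.63 CPM, a ratio of 2.01. Over 6 libraries the log2 fold change (KO over WT) was 0.94 for P2ry12 (SE 0.34, 95% interval 0.11 to 1.76, adjusted p = 0.184, edgeR quasi-likelihood test with Benjamini-Hochberg adjustment). For Siglech it was 0.99 (SE 0.35, 0.14 to 1.84, adjusted p = 0.184, same edgeR test). Neither passed the threshold of 0.05 on the adjusted p.

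Among the other receptors of the set, Gpr34 had the wider spread. Gpr34, a receptor for lysophosphatidylserine, stood at 16.6, 9.04 and 7.30 CPM in the WT libraries and at 21.1, 12.6 and 18.6 CPM in the KO libraries. KO 1 and KO 3 were again above all WT values and KO 2 was within their range, as for P2ry12. Its log2 fold change was 0.66 (SE 0.37, -0.24 to 1.55, adjusted p = 0.241, edgeR). Cx3cr1, the fractalkine receptor, had 89.9, 59.6 and 67.5 CPM in the WT libraries and 91.6, 107.4 and 90.9 CPM in the KO libraries. The groups did not overlap, but WT 1 nearly met KO 1 and KO 3. The log2 fold change of Cx3cr1 was 0.40 (SE 0.18, -0.03 to 0.84, adjusted p = 0.19, edgeR).

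P2ry13, a second ADP receptor, and Csf1r had the smallest positive differences. P2ry13 measured 20.7, 15.3 and 14.4 CPM in the WT and 21.8, 21.7 and 17.2 CPM in the KO libraries, so that KO 3 lay inside the WT range. Its log2 fold change of 0.25 had an interval of -0.25 to 0.75 (SE 0.20, adjusted p = 0.379, edgeR). Csf1r was at 169.5, 136.1 and 140.2 CPM in the WT and at 147.0, 196.0 and 148.0 CPM in the KO libraries. Csf1r lies at chr18:61100598-61132149 (plus strand) and shared 873 exon bases, 15.1% of its own, with Hmgxb3 of the opposite strand. Only KO 2 exceeded the WT libraries, and the interval of its log2 fold change of 0.12 ran from -0.31 to 0.55 (SE 0.18, adjusted p = 0.606, edgeR). Under scaling by total library size alone this value was -0.01.

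Tmem119, a transmembrane protein used as a microglia marker, Sall1 and Olfml3 were lower in KO 1 and KO 3 than in every WT library. Tmem119 had 54.0, 37.1 and 43.7 CPM in the WT libraries, 28.0 and 30.6 CPM in KO 1 and KO 3, and 71.0 CPM in KO 2. The library labelled KO 2 held the highest value of all 6, and the other KO libraries the 2 lowest. Sall1, a zinc finger transcription factor of microglial identity, was at 65.7, 59.9 and 55.8 CPM in the WT libraries and at 44.6, 61.7 and 40.9 CPM in the KO libraries. Olfml3 was the steadiest gene in the WT group, with 44.3, 46.9 and 47.0 CPM, and had 27.4, 47.1 and 22.7 CPM in the KO libraries. In both genes KO 2 was at the WT level while KO 1 and KO 3 stood apart from it. The log2 fold changes over 6 libraries were -0.07 for Tmem119 (SE 0.39, -1.02 to 0.87, adjusted p = 0.893), -0.32 for Sall1 (SE 0.19, -0.77 to 0.13, adjusted p = 0.252) and -0.53 for Olfml3 (SE 0.28, -1.22 to 0.17, adjusted p = 0.228), all by edgeR.

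**Figure D1:**
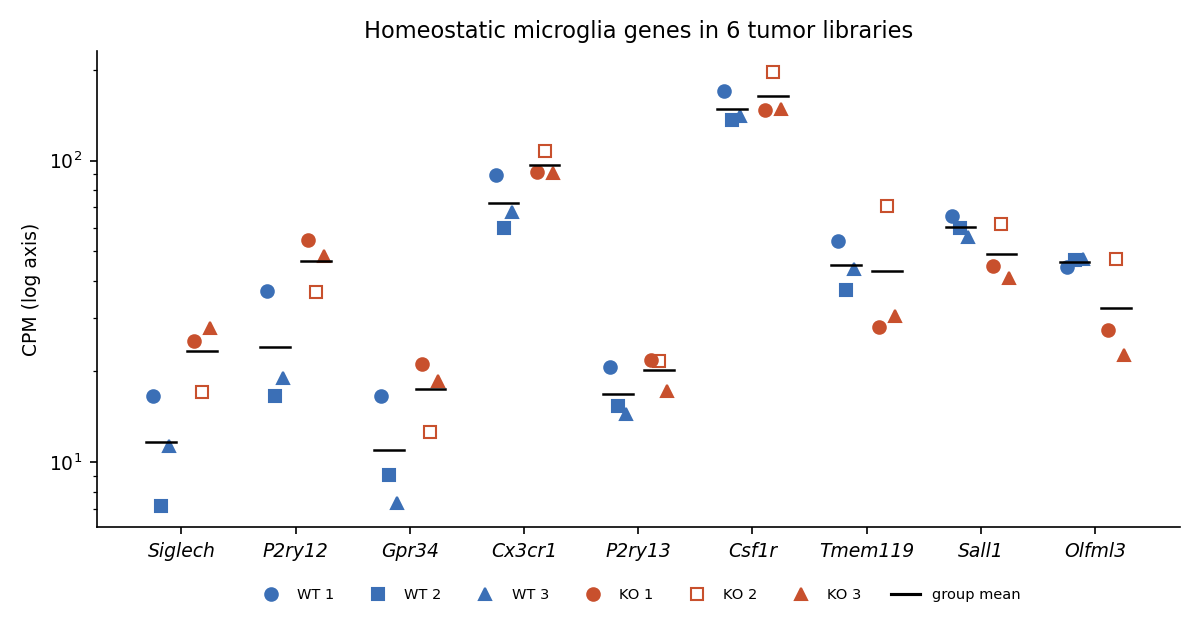
Level of each of the 9 genes in CPM (log axis) in the 3 WT (blue) and 3 KO (red) libraries, 1 point per library, with a black bar for the group mean and an open square for the library labelled KO 2. KO 1 and KO 3 lie above the 3 WT libraries for Siglech, P2ry12, Gpr34 and Cx3cr1 and under them for Tmem119, Sall1 and Olfml3, where KO 2 is within or above the WT range.

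Over all 6 libraries 0 of the 9 genes passed the adjusted threshold in either direction, against a background of 0% of the 16166 genes tested. At an unadjusted p under 0.05 by the same edgeR test, P2ry12 and Siglech were higher (2 of 9), against 15.2% of all genes, and 0 of 9 were lower, against 11.9%. DESeq2, edgeR's exact test and limma-voom likewise called 0 of the 9, whereas DESeq2 called 425 genes lower and 757 higher, the exact test 46 and 75, and limma-voom 0 and 0. The groups did not overlap for Cx3cr1 and Siglech, with KO higher (2 of 9, 22.2%), against 13.2% of all genes, and for 0 of 9 with KO lower, against 14.6%. The median log2 fold change of the 9 genes was 0.25, beside -0.02 over all genes tested. These shares are from 9 genes and are near those of the whole table.

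The picture differed without the library labelled KO 2. Over the other 5 libraries P2ry12 (log2 fold change 1.09, SE 0.35, adjusted p = 0.0433) and Siglech (1.19, SE 0.34, adjusted p = 0.0315) passed the edgeR test as higher in KO. Tmem119 (-0.61, SE 0.19, adjusted p = 0.0399), Sall1 (-0.50, SE 0.13, adjusted p = 0.0261) and Olfml3 (-0.88, SE 0.14, adjusted p = 0.00968) passed the edgeR test as lower. Gpr34 (0.86, adjusted p = 0.0912), Cx3cr1 (0.34, adjusted p = 0.187), P2ry13 (0.21, adjusted p = 0.442) and Csf1r (-0.01, adjusted p = 0.973) did not pass it (edgeR). Thus 2 of 9 were called higher, against 24.5% of the 16279 genes tested, and 3 of 9 lower, against 28.3%. Both shares are near those of the whole table.

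With WT 3 left out as well, over WT 1, WT 2, KO 1 and KO 3, only Olfml3 passed, at a log2 fold change of -0.88 (SE 0.19, adjusted p = 0.0443, edgeR). This is 1 of 9 lower, against 13.9% of the 16183 genes tested, and 0 of 9 higher, against 2.87%. The Olfml3 call was lost without KO 1 (-1.0, adjusted p = 0.138, edgeR) and without KO 3 (-0.73, adjusted p = 0.273, edgeR), when a single KO library remained and was assumed to vary like the WT libraries. Siglech had 1.15 (SE 0.42, adjusted p = 0.095), P2ry12 0.94 (SE 0.39, adjusted p = 0.123), Sall1 -0.56 (SE 0.17, adjusted p = 0.0672) and Tmem119 -0.65 (SE 0.24, adjusted p = 0.0954) by edgeR. Without WT 1, when WT 2 was the only WT library and was assumed to vary like the KO libraries, P2ry12 (1.62), Siglech (1.87), Gpr34 (1.12) and Cx3cr1 (0.60) were called higher by edgeR (4 of 9, against 25.9% of all genes) and Sall1 and Olfml3 lower (2 of 9, against 27.5%). Without WT 2, when WT 1 was the only WT library, 0 of 9 were called higher (against 6.91%), with P2ry12 at 0.48 and Siglech at 0.67, and Tmem119 and Olfml3 were called lower (2 of 9, against 12.5%; edgeR). The median of the 9 genes was 0.10, beside -0.03 over all genes. Scaled by total library size, the median of all genes was -0.17 over 6 and -0.27 over 4 libraries, beside -0.02 and -0.03 with TMM, and 3 of the 9 (Tmem119, Sall1 and Olfml3) were then called lower over 4 libraries, against 22.3% of all genes.

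**Figure D2:**
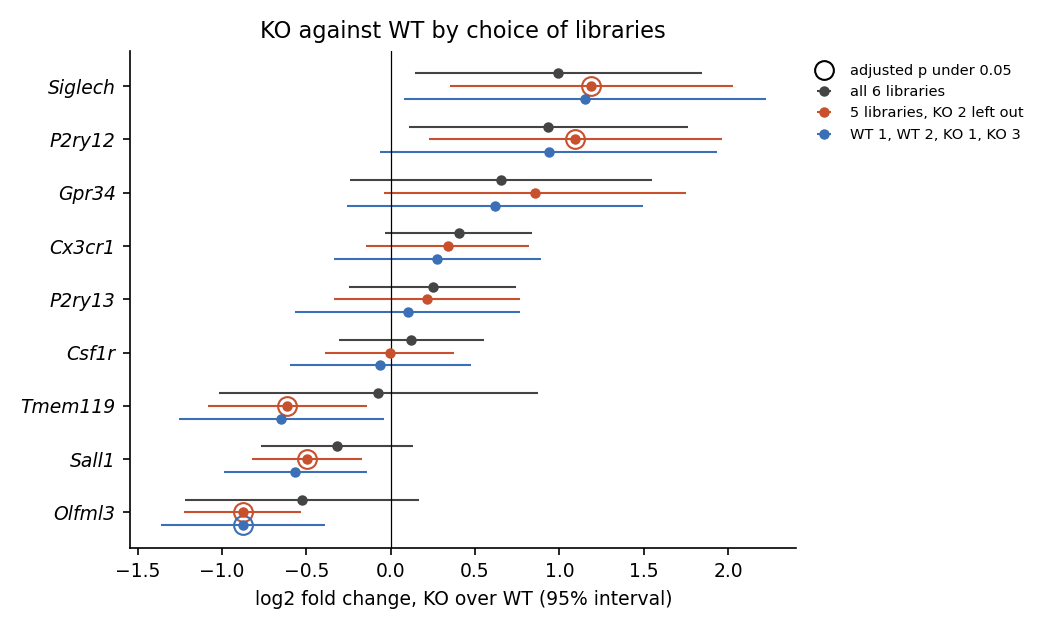
Log2 fold change (KO over WT) of each gene with its 95% interval over all 6 libraries (black), the 5 without KO 2 (red) and WT 1, WT 2, KO 1 and KO 3 (blue), with a ring around values at an adjusted p under 0.05 (edgeR). Intervals of all 9 genes are unringed over 6 libraries, 5 genes are ringed without KO 2, and Olfml3 is ringed over the 4 libraries with -0.88.

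The library labelled KO 2 was within or above the WT range for the 9 genes. It was above all 3 WT libraries for 6 of the 9 genes (P2ry13, Tmem119, Cx3cr1, Csf1r, Siglech and Olfml3), against 24.1% of all genes, within their range for P2ry12, Sall1 and Gpr34, and under them for 0, against 21.3%. For Olfml3 this excess was slight, with 47.1 CPM against 47.0 CPM in WT 3. KO 1 and KO 3 were both above the 3 WT libraries for 4 of the 9 genes, against 37.8% of all genes, and both under them for 3 of 9, against 40.1%. The sum of the 9 genes was 388 to 514 CPM in the WT libraries, 461 CPM in KO 1, 445 CPM in KO 3 and 571 CPM in KO 2. The summed level of KO 1 and KO 3 thus stayed inside the WT range. The shares of the 9 genes above and under the WT libraries in KO 1 and KO 3 were near those of all genes.

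Ratios of 2 genes inside a library need no scaling between libraries, and they showed which of the genes moved together. The count of Siglech over that of P2ry12 was 0.450, 0.432 and 0.595 in the WT and 0.462, 0.467 and 0.579 in the KO libraries, a spread of 1.38-fold between the lowest and the highest. Cx3cr1 over P2ry13 was slightly steadier, at 1.36-fold. Cx3cr1 over Csf1r (1.42-fold), P2ry13 over Csf1r (1.44-fold), Sall1 over Olfml3 (1.52-fold), P2ry12 over Gpr34 (1.58-fold) and Csf1r over Sall1 (1.59-fold) were next. Tmem119 was steadiest against Sall1, at 1.86-fold, with the highest ratio in KO 2.

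The 9 widest of these spreads, from 3.62-fold to 8.05-fold, were those of P2ry12, Siglech and Gpr34 over Tmem119, Sall1 and Olfml3. Siglech over Olfml3 was 0.375, 0.153 and 0.240 in the WT libraries, 0.923 and 1.23 in KO 1 and KO 3, and 0.364 in KO 2, a spread of 8.05-fold. P2ry12 over Tmem119 was 0.683, 0.448 and 0.435 in the WT libraries, 1.95 and 1.58 in KO 1 and KO 3, and 0.517 in KO 2. In both ratios KO 2 lay among the WT libraries, and KO 1 and KO 3 were more than 2 times the highest WT value. Of the 36 pairs of the 9 genes, 8 had ratios that did not overlap between WT and all 3 KO libraries (22.2%), against 25.9% of all pairs of tested genes. Of these 8, 5 had Sall1 in the denominator (Siglech, P2ry12, Cx3cr1, P2ry13 and Csf1r over Sall1), 2 had Olfml3 (Cx3cr1 and Csf1r), and the last was Cx3cr1 over Csf1r. That last ratio was 0.530, 0.438 and 0.482 in the WT and 0.623, 0.548 and 0.614 in the KO libraries.

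**Figure D3:**
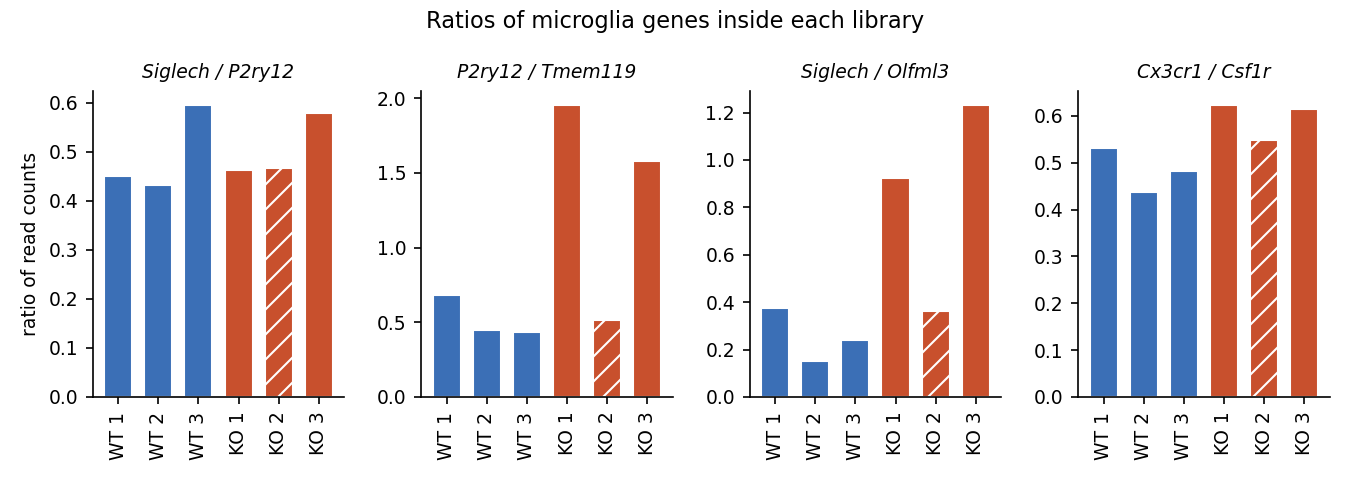
Ratio of the read counts of 2 genes inside each library, 1 bar per library from 0, with WT in blue, KO in red and the library labelled KO 2 hatched. Siglech over P2ry12 stays between 0.432 and 0.595, P2ry12 over Tmem119 and Siglech over Olfml3 are highest in KO 1 and KO 3, and Cx3cr1 over Csf1r is at 0.548 to 0.623 in KO and 0.438 to 0.530 in WT.

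P2ry12 kept a steady ratio to Med12l, the gene in which it lies. Med12l was at 41.2, 19.8 and 22.8 CPM in the WT libraries and at 73.0, 39.9 and 68.5 CPM in the KO libraries. P2ry12 over Med12l was between 0.706 and 0.920 in all 6 libraries, a spread of 1.30-fold, which was less than for any pair of the 9 genes. The log2 fold change of Med12l was 1.10 (SE 0.36, adjusted p = 0.184, edgeR). The part of Med12l reads in the P2ry12 count was not tested. Whether genes elsewhere in the genome kept as steady a ratio to P2ry12 was not tested either. Of the other receptor genes within Med12l, P2ry14 had 0.06 over 6 and -0.49 over 4 libraries and Gpr171 had -0.84 and -2.44, the last with an adjusted p of 0.0428 (edgeR). P2ry13, in the same stretch of the chromosome, had 0.25 and 0.10.

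The genes most like the mean pattern of the 9 were sought among 13022 genes with a mean of at least 5 CPM. The measure was Pearson's r over the 6 libraries between log2 CPM and the mean of the 9 standardized log2 CPM, given as a description. The 9 genes did not all follow that mean themselves, with r from 0.93 for Csf1r to 0.25 for Sall1 and 0.02 for Olfml3. The 5 nearest other genes were Tmie (r of 0.987), 4632428N05Rik (0.986), Il6ra (0.981), Eif1b (0.98) and Ap3b1 (0.979). Tmie, for example, had 9.04, 3.93 and 4.05 CPM in the WT and 5.76, 10.1 and 5.10 CPM in the KO libraries. All 5 had their highest value in KO 2, as the mean of the 9 did, which follows largely from how they were chosen. The points are 6 libraries of a single study that share their scaling.

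Other genes known from homeostatic microglia were also divided. Over 6 libraries 0 of 16 were called in either direction (edgeR). At an unadjusted p under 0.05 by the same test, 4 were higher (Slc2a5, Rapgef5, Bin1 and Mertk), against 15.2% of all genes. In the lower direction there were 0, against 11.9%. The part of other cell types in the levels of these genes was not tested. Slc2a5, a fructose transporter of microglia, had the highest log2 fold change at 1.13 (adjusted p = 0.184, edgeR), with 5.14, 1.71 and 2.22 CPM in the WT and 6.62, 5.70 and 7.71 CPM in the KO libraries. Il10ra, the interleukin 10 receptor, had the lowest at -0.67. Over the 4 libraries Il10ra (-1.43) and Entpd1 (-1.04), which hydrolyses extracellular ATP and ADP, were called lower by edgeR. This was 2 of 16, against 13.9% of all genes, and 0 were higher, against 2.87%, with a list median of -0.08. For the lists that follow, the same 2 shares stand beside the counts called over the 4 libraries with TMM. P2ry6, a UDP receptor of phagocytosis, had -0.56 over 6 and -1.07 over 4 libraries. The summed level of the 16 genes was 620 to 765 CPM in the WT libraries and 773 to 818 CPM in the KO libraries. Without Bin1, which had 129 to 200 CPM in the WT and 210 to 304 CPM in the KO libraries, the sums overlapped, at 476 to 565 and 469.6 to 608 CPM.

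Pan-myeloid genes, which microglia share with all macrophages, had a low summed level in KO 1 and KO 3. Their sum was 1376 to 1607 CPM in the WT libraries, 565 CPM in KO 1, 451 CPM in KO 3 and 1920 CPM in KO 2. KO 1 and KO 3 were far under every WT library and KO 2 was above them. Over the 4 libraries 14 of 16 were called lower (edgeR) and 0 higher, with a median log2 fold change of -1.66, from -2.60 for Ptprc (CD45) to -0.07 for Itgam (CD11b). Aif1 (Iba1) had -1.56, Cd68 -1.80 and Tyrobp, the adaptor of Trem2 and of Siglech, -1.70. Over all 6 libraries 0 of 16 were called (edgeR), with a median of -0.64, from -1.17 for Cd68 to 0.07 for Itgam. Aif1 had -0.58 and Tyrobp -0.80 in that comparison.

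Relative to the pan-myeloid genes the 9 genes were higher in KO 1 and KO 3. Per 1000 CPM of pan-myeloid genes, P2ry12 had 26.8, 10.4 and 12.98 CPM in the WT libraries, 96.8 and 107.2 CPM in KO 1 and KO 3, and 19.1 CPM in KO 2. Olfml3, the lowest of the set by fold change, still had 48.5 and 50.4 CPM there against 29.2 to 32.2 CPM in the WT libraries, and 24.6 CPM in KO 2. When libraries were scaled to the pan-myeloid genes in place of TMM, an alternative added after the data were seen, 9 of the 9 genes were called higher over the 4 libraries by edgeR, against 75.1% of all genes, from 0.69 for Olfml3 to 2.69 for Siglech. In that scaling 12148 of all 16183 genes were called higher and 737 lower, against 464 and 2244 with TMM, and the median of all genes was 1.55 beside 1.64 for the 9. Over 6 libraries P2ry12 (2.15, adjusted p = 0.0408) and Siglech (2.25, adjusted p = 0.0365) were called higher by edgeR in this scaling, against 15.7% of all genes. Values in this scaling were thus raised for the table as a whole.

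The summed levels of genes of activated microglia and of recruited cells were under the WT range in KO 1 and KO 3, though not every gene was. The 16 genes of activated microglia summed to 808 to 1307 CPM in the WT libraries, 351 CPM in KO 1, 253 CPM in KO 3 and 1043 CPM in KO 2. Over the 4 libraries 12 of 16 were called lower (edgeR) and 0 higher, with a median of -3.04, from Tnf at -5.18 to Lpl at -0.42. Over 6 libraries 0 of 16 were called (edgeR), with a median of -1.20, from Spp1 (osteopontin) at -2.38 to Trem2 at -0.41. Monocyte and recruited macrophage genes summed to 321 to 530 CPM in the WT libraries, 81.3 and 71.2 CPM in KO 1 and KO 3, and 471 CPM in KO 2. Of 13 tested, 7 were called lower over the 4 libraries (edgeR, median -3.05), and 0 over 6 (median -1.27), where Arg1 was lowest at -2.45 and Itga4 highest at -0.12. Border-associated macrophage genes had 2 of 8 called lower over the 4 libraries and 0 of 7 over 6 (edgeR), from Ms4a7 at -1.84 to Mrc1 (CD206) at 0.57 over 6. Of 8 neutrophil genes 3 were in the table and 2 were tested, S100a9 (-0.82 over 6) and Csf3r (-0.13), with 0 called in either comparison (edgeR).

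The ligands of the receptors in the set did not move as one. Il34, a ligand of Csf1r made mainly by neurons in the brain, stood at 30.9, 12.2 and 18.6 CPM in the WT and at 51.1, 23.9 and 70.5 CPM in the KO libraries, a log2 fold change of 1.23 over 6 (adjusted p = 0.184, edgeR). Csf1, the other ligand, had 51.0, 55.5 and 55.2 CPM in the WT libraries, 32.9 and 26.3 CPM in KO 1 and KO 3, and 60.5 CPM in KO 2. Its value was -0.45 over 6 libraries and -0.86 over 4, where it was called lower (adjusted p = 0.0473, edgeR). Cx3cl1, the ligand of Cx3cr1, had 357, 105 and 206 CPM in the WT and 762, 261 and 871 CPM in the KO libraries, and its log2 fold change was 1.498 over 6 and 1.81 over 4 libraries without a call (edgeR). Il34 and Cx3cl1 were highest in KO 1 and KO 3, and Csf1 was lowest there.

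Spi1 and Irf8, regulators of the homeostatic program, were low in KO 1 and KO 3. Spi1 (PU.1) had 13.8, 16.5 and 14.5 CPM in the WT libraries, 6.22 and 5.31 CPM in KO 1 and KO 3, and 19.2 CPM in KO 2, and was called lower over the 4 libraries (-1.40, adjusted p = 0.0388, edgeR). Irf8 had 60.7, 65.9 and 70.9 CPM in the WT libraries, 14.8 and 9.22 CPM in KO 1 and KO 3, and 128 CPM in KO 2, and was called lower too (-2.41, adjusted p = 0.0343, edgeR). Tgfb1 had -0.45 over 6 and -0.98 over 4 libraries without a call. Of the 15 ligands and regulators, 3 were called lower and 0 higher over the 4 libraries and 0 over 6 (edgeR), with medians of -0.51 and -0.31. Over 6 libraries they ran from Runx1 at -0.84 to Mef2c, a factor that neurons also express, at 1.60.

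Relatives of the 9 genes gave calls over the 4 libraries only, where 13.9% of all genes were called lower. Of the P2Y receptors and neighbours on chromosome 3, Gpr171 and P2ry10 (-3.23) were called lower over the 4 libraries (2 of 6, edgeR) and 0 over 6, where P2ry10 was lowest at -0.92. Among Sall, Olfml and Siglec relatives, Sall3 was called lower over 4 libraries (-2.21; 1 of 8, edgeR) and 0 over 6, where Sall3 had -1.60 and Olfml1 0.58.

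Markers of other cell types moved with the same libraries. Neuron genes summed to 1688 to 5123 CPM in the WT libraries, 11637 CPM in KO 1, 14260 CPM in KO 3 and 4380 CPM in KO 2. All 10 had a positive log2 fold change over 6 libraries, from Gad2 at 0.79 to Slc17a7 at 1.98, with 0 called in either comparison (edgeR). Within the WT group, WT 1 held the highest neuron sum and the highest P2ry12, P2ry13, Siglech, Gpr34, Cx3cr1, Tmem119, Sall1 and Csf1r. WT 2 held the lowest neuron sum and the lowest P2ry12, Siglech, Cx3cr1, Tmem119 and Csf1r. Olfml3 was lowest in WT 1, and P2ry13, Gpr34 and Sall1 were lowest in WT 3. Proliferation genes summed to 1255 to 2246 CPM in the WT libraries, 132 CPM in KO 1, 42.1 CPM in KO 3 and 1398 CPM in KO 2, with 9 of 10 called lower over the 4 libraries and 0 over 6 (edgeR), where they ran from Bub1 at -2.06 to Aurka at -1.51. The part of neuronal tissue and of proliferating cells in the differences of the 9 genes was not tested.

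The remaining lists showed the following. Oligodendrocyte genes summed to 1321 to 3347 CPM in the WT and 3212 to 7489 CPM in the KO libraries, with 0 of 8 called in either comparison (edgeR) and the lowest log2 fold change over 6 libraries, 0.33, in Cnp. Astrocyte genes summed to 3229 to 4291 and 4681 to 6778 CPM. Over 4 libraries Gfap, of reactive astrocytes, was called lower (-2.26) and Slc1a2, a glutamate transporter, higher (2.03), and over 6 libraries 0 of 8 were called, with -1.39 and 1.83 as lowest and highest (edgeR). Endothelial genes, 0 of 8 of which were called in either comparison (edgeR), summed to 167 to 214 and 184 to 254 CPM, from Kdr at -0.51 to Flt1 at 0.65 over 6. T cell genes summed to 32.3 to 36.1 CPM in the WT libraries, 28.0 CPM in KO 1, 7.29 CPM in KO 3 and 50.7 CPM in KO 2. Cd4 alone made up 22.9 CPM of the sum in KO 1, against 7.29 to 10.4 CPM in the WT libraries. Of the T cell genes, 6 of 7 were called lower over 4 libraries and 0 over 6 (edgeR), from Cd8a at -0.997 to Cd4 at 0.47. The sum of the 9 homeostatic genes spanned a narrower range over the 6 libraries, as a ratio of highest to lowest, than that of any list but the other homeostatic genes. That sum combines genes that moved in opposite directions in KO 1 and KO 3. For single genes of the 9, the same ratio ran from 1.44 for Csf1r, which had the highest level, to 3.89 for Siglech.

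**Figure D4:**
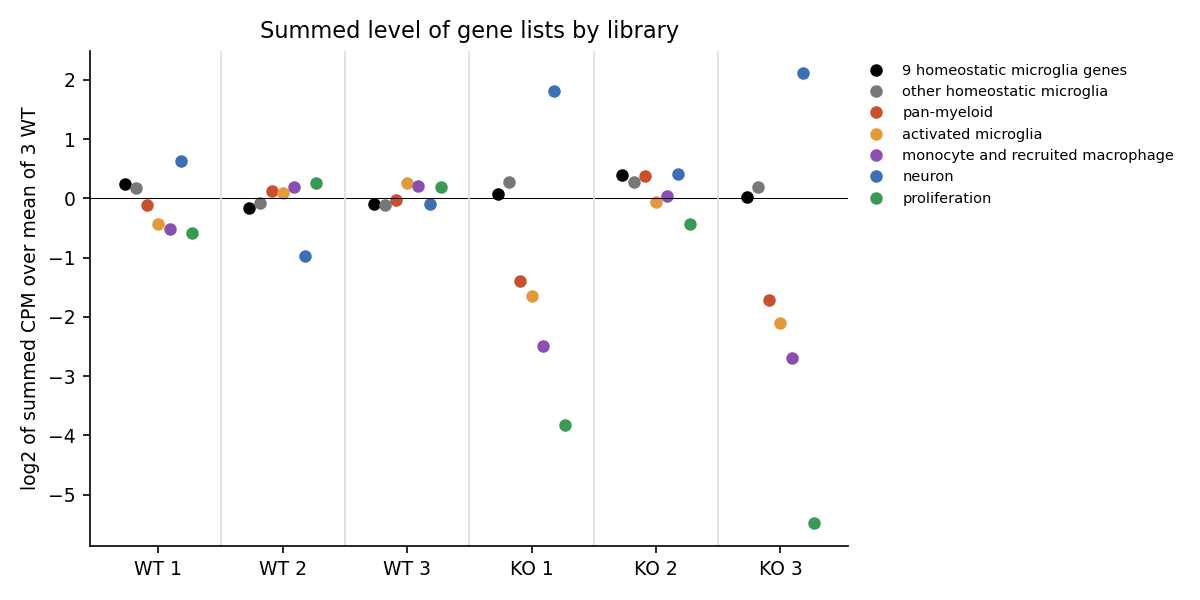
Summed CPM of each gene list in each library, as the log2 ratio to the mean of the 3 WT libraries, 1 point per list and library. The sums of the 9 homeostatic genes and of the 16 others stay near 0 in all libraries, although their single genes moved both ways. In KO 1 and KO 3 the pan-myeloid, activated, monocyte and proliferation sums lie under the WT libraries, and the neuron sum lies above them.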

How the data were processed

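RNA was taken from tumor tissue of 6 mice, 3 per group as the sample labels give them. Per the labels, libraries were made with the NEBNext Ultra RNA kit and processed with CASAVA 1.8.2, the mm10 genome and edgeR, whereas the study's methods name another kit and the human genome. The authors deposited raw counts, the whole number of reads per gene, for 16729 genes, and FPKM per gene and library, which the authors scaled by gene length and plain library size. The deposited table also has 6 columns of normalized signal and the authors' own fold changes, p-values and false discovery rates, none of which were used.

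All genes passing filterByExpr (minimum count 10, minimum total 15) entered edgeR 4.0.16 (R 4.3.3) with TMM factors. Its quasi-likelihood F test was adjusted by Benjamini-Hochberg across the whole table, and genes were called at an adjusted p under 0.05. CPM used TMM factors over all 6 libraries. Total counts were 17632070 to 22241832 per library, and floors cover counting error only. No 2 replicates agreed within sampling noise. Labels give separate tumors, so that p-values measure the spread between tumors.

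Alternatives were RLE and upper quartile factors, total library size, no filter, a mean count of 10, DESeq2 1.42.0, edgeR's exact test, limma-voom (limma 3.58.1), a replicate block, each library left out and, added after the data were seen, scaling to pan-myeloid genes. The fits were tested on simulated data in which all libraries of a group varied alike. A library that differs from its group, like the one labelled KO 2, was not covered. The members and all 16 gene lists were chosen with earlier results of these data known. Named were the 9 members, Esm1 and the lowest and highest gene of each list over 6 libraries. Also named were 15 further genes chosen as ligands, regulators, neighbours and markers, and the 5 genes most like the mean of the members. Bin1, Mertk, Rapgef5, Entpd1, P2ry10, Ptprc, Tnf, Lpl and Il10ra over 4 libraries were named after their values were seen. Some genes under this rule are not reported here. Promoters and positions came from RefSeq (GRCm38.p6) and GENCODE vM21. Python 3.11.15, pandas 2.3.3 and matplotlib 3.10.9 made tables and figures.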

Additional observations from a re-analysis of the deposited data

How the results depend on the processing

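Most single log2 fold changes and counts kept their direction and their side of the threshold. Over 6 libraries the genes called lower and higher were 425 and 757 with DESeq2, 46 and 75 in the exact test and 92 and 2545 with scaling to pan-myeloid genes. Leaving out each library in turn gave 0 to 4608 lower and 0 to 3986 higher, all from leaving out KO 2. It gave 0 to 3 of the 9 genes lower and 0 to 2 higher. Pan-myeloid scaling gave 2 higher and a median of 1.35, and reversed Tmem119 (0.74), Sall1 (0.71) and Olfml3 (0.40). Leaving out 1 library moved Tmem119 between -0.61 and 0.16 and Csf1r between -0.0068 and 0.21, and total library size gave -0.014 for Csf1r.

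Over the 4 libraries the genes called lower were 3605 with total library size, 3590 with the exact test and 737 with pan-myeloid scaling, and 252 to 4508 with 1 library left out (252 without KO 3, 926 without KO 1, 4508 without WT 1). Those called higher were 2679 with DESeq2, 2622 with the exact test, 12148 with pan-myeloid scaling and 0 to 4240 with 1 library left out. Of the 9 genes, 3 were lower with total library size, 0 with pan-myeloid scaling and 0 to 2 with 1 library left out. Siglech alone (1 gene) was higher in DESeq2 and the exact test, 9 were higher with pan-myeloid scaling, and 0 to 4 with 1 library left out. The pan-myeloid median was 1.64, with Tmem119 at 0.91, Sall1 at 1.00, Csf1r at 1.502 and Olfml3 at 0.69. P2ry13 was at -0.14 with total library size and between -0.10 and 0.33 with 1 library left out, and Csf1r between -0.21 and 0.10. The cause of these shifts was not tested.

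Replicate numbers were shared between groups, and deviations from the group means correlated at 0.587, 0.618 and -0.236 for numbers 1, 2 and 3. For numbers 1 and 2 the KO and WT libraries were each other's best match. KO 3 correlated best with WT 1, and WT 3 with KO 2. The deviations of the 3 libraries in a group sum to 0, so these values cannot settle whether the numbers pair the samples. With the replicate number as a block over 6 libraries, 0 genes were called (edgeR), and P2ry12 had 1.00 and Siglech 1.04, both at an adjusted p of 0.065. No block could be fitted over the 4 libraries, which share only 1 number.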
